A study of Mus musculus with 12 samples.

Results

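The replication-dependent histone genes were described in RNA sequencing of mouse OT-1 CD8+ T cells. Members were the protein-coding genes whose symbol in GENCODE release M21 (GRCm38, the assembly also known as mm10) begins with Hist1h, Hist2h, Hist3h or Hist4h. This gave 67 genes of the 55487 identifiers in each of the 2 deposited count tables, and all 67 were present in both. They comprised 6 H1, 18 H2A, 18 H2B, 12 H3 and 13 H4 genes. Of these, 54 lie in the Hist1 cluster on chromosome 13, 10 in Hist2 on chromosome 3, 2 in Hist3 on chromosome 11, and 1, Hist4h4, on chromosome 6. The 3 further symbols of this form, Hist1h2aj, Hist1h2al and Hist3h2bb-ps, are not annotated as protein coding and were left out.

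The study concerns the Y-linked gene Kdm5d, which encodes a demethylase of lysine 4 of histone H3, and sex differences of CD8 T cells. It has 12 libraries in 4 groups of 3. Female and Male were OT-1 CD8+ T cells from the spleens of mice of each sex, activated for 3 days with beads against CD3 and CD28 together with recombinant IL2. WT and KD were male cells of a separate batch, electroporated and then cultured for 3 days. The KD group was given Cas9 and a guide RNA that targets Kdm5d, whereas the WT group was given guide RNA and no Cas9. All cells carry the OT-1 transgenic T cell receptor, which recognises a peptide of ovalbumin. Because WT cells lacked Cas9, its presence and the reduction of Kdm5d cannot be told apart. The ages of the mice and the numbers behind each group were not given in the sources used here, so that p-values measure the spread between these libraries, which may be technical.

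Replication-dependent histone genes supply the H1 linker histone and the H2A, H2B, H3 and H4 core histones that package newly copied DNA, and they are transcribed mainly in S phase. Their messenger RNAs end in a conserved stem-loop in place of a poly(A) tail: the stem-loop-binding protein and the U7 small nuclear ribonucleoprotein direct cleavage after the loop, and the messages are degraded when DNA synthesis stops. CD8 T cells divide rapidly after activation and so draw on this supply.

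The stem-loop was found after the stop codon in annotated transcripts of 46 members, with 8 distinct versions of its 16 bases. The other 21 had no match, and 15 of these have fewer than 20 annotated bases after the stop codon. Of the rest, Hist2h3b and Hist1h1a have 37 and 48 such bases. Hist1h2bc, Hist1h2bq, Hist1h2br and Hist2h2be have 742, 1608, 1803 and 2192, so a short annotation does not account for their lack of a match. The loops below were chosen because their genes carry the results that follow or because their loops differ. They are given 5′ to 3′ as DNA from the GENCODE M21 transcripts, with the 16 bases of the stem-loop in capitals and 5 bases on each side.
Hist1h1c: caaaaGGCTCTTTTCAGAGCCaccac
Hist1h1d: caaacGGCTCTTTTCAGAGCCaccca
Hist3h2a: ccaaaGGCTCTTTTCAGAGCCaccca
Hist2h2ac: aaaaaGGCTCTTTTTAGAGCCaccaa
Hist3h2ba: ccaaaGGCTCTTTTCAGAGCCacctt
Hist1h3f: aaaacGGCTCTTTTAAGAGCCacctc
Hist1h3g: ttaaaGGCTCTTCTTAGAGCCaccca
Hist1h4a: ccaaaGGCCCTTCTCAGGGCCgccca
Hist1h4b: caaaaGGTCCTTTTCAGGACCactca
Hist4h4: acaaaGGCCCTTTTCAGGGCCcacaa

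Promoters of 61 members were matched in RefSeq (GRCm38.p6) in windows from 250 bases before to 50 bases after the start. They differed between classes in 4 short motifs that were searched on both strands. CCAAT was present in every H1, H2A, H2B and H3 promoter matched but in 3 of 12 H4 promoters (25% of them), against 37.9% of 27025 RefSeq promoters. The octamer ATTTGCAT was present in 7 of 18 H2A and 6 of 16 H2B promoters and in 0 of the H1, H3 and H4 promoters, against 1.8% of all promoters. AAACACA was present in 4 of 5 H1 promoters, against 7.1% of all promoters. TATAAA was present in 34 of 61 member promoters (55.7%), against 14.2% of all promoters. These are matches of letters, not measured binding. The 150 bases before the start of 4 members are shown because these genes are named in the results below and together hold the 4 motifs. Hist1h4a is one of the 3 H4 genes with CCAAT. They read 5′ to 3′ on the strand of the gene, with the 4 motifs in capitals, on either strand.
Hist1h1b (H1, chr13:21780626-21780775, minus strand): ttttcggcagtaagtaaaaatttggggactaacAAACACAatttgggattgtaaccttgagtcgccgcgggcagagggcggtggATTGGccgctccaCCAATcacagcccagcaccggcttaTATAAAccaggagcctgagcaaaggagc
Hist3h2a (H2A, chr11:58954535-58954684, plus strand): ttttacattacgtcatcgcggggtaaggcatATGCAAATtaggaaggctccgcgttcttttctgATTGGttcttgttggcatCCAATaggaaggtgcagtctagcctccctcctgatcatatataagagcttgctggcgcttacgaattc
Hist1h2bg (H2B, chr13:23571250-23571399, plus strand): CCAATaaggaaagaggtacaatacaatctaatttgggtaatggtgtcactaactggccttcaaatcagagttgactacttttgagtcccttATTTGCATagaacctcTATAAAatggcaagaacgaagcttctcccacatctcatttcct
Hist1h4a (H4, chr13:23761250-23761399, minus strand): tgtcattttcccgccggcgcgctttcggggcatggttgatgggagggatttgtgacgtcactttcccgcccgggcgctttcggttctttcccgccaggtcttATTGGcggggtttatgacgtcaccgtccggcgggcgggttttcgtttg

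Libraries held between 78748647 and 110803318 counts. They were made from total RNA after depletion of ribosomal RNA with a stranded kit, per the labels' protocols, so that transcripts without a poly(A) tail could be captured. Values below are counts per 1000000 counts of a library scaled by TMM factors (CPM), and a gene was called lower or higher at an edgeR quasi-likelihood adjusted p under 0.05. Cd8a, a defining gene of these cells, had group means between 499 and 621 CPM. It is 1 of 10 listed CD8 T cell identity genes. Of these, 2 were higher and 5 lower in Male, beside 23.5% and 26.3% of all genes tested. In KD, 1 was higher and 7 were lower, beside 16.8% and 18.4% of all genes. The 10 summed to 2606.5 to 2635 CPM in Female and 2563 to 2588 CPM in Male. In WT they summed to 3001 to 3053 CPM and in KD to 2628 to 2701 CPM. The 16 markers of B cells, myeloid cells, NK cells, CD4 T cells and red cells summed to 5.13 to 5.73 CPM in the Female libraries, 5.26 to 5.97 CPM in Male ones, 10.6 to 12.1 CPM in WT ones and 6.54 to 7.82 CPM in KD ones. Of those that could be tested in Male, 1 of 6, Cd4, was lower and 0 were higher. In KD, 3 of 7 (Itgax, Cd79b and Klrb1c) were lower and 0 higher. Log2 fold changes of the tested markers ran from -7.07 to 0.73 in Male and from -1.60 to 0.29 in KD. Of those 16, Ms4a1, Siglech, Hbb-bs and Hba-a1 had a mean of 0 in all 4 groups.

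Histone genes are near copies of each other, which limits what a count of 1 gene means. Of the 67 members, 61 had over 10% of their 31-base stretches in common with another annotated gene, and the median member shared 60.2%. The 6 under 10% were Hist1h1a, Hist1h1b, Hist1h1d, Hist1h1t, Hist2h2be and Hist2h4. How the authors' counting placed reads that fit several genes, and whether it used strand, were not given in the sources used here. Exons of 24 members overlap those of another identifier. Counts of single members outside those 6 are therefore uncertain where reads could be divided.

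Histone transcripts were a large part of all counts in the activated cells, and a smaller part in Male than in Female. The 67 genes together took 4.18%, 4.20% and 4.18% of the counts in the 3 Female libraries and 3.09%, 3.10% and 3.17% in the 3 Male libraries. All Male libraries lay below all Female libraries. The summed level was 41852 ± 363 CPM in Female and 31231 ± 319 CPM in Male (SD, n = 3), so that Male held 74.6% of the Female level. In WT the share was 1.34%, 1.49% and 1.51%, and in KD it was 1.51%, 1.45% and 1.45%, so these 2 groups overlapped. KD held 99.1% of the WT level in summed CPM. That figure depends on the first WT library, at 13557 CPM. The other WT libraries, at 15119 and 15303 CPM, lay above every KD library. WT and KD lay under Female and Male in every class, but the tables were normalized separately, and batch, electroporation and culture cannot be told apart in that difference. In bulk RNA, fewer cells in S phase and less histone RNA per cell cannot be told apart.

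**Figure D1:**
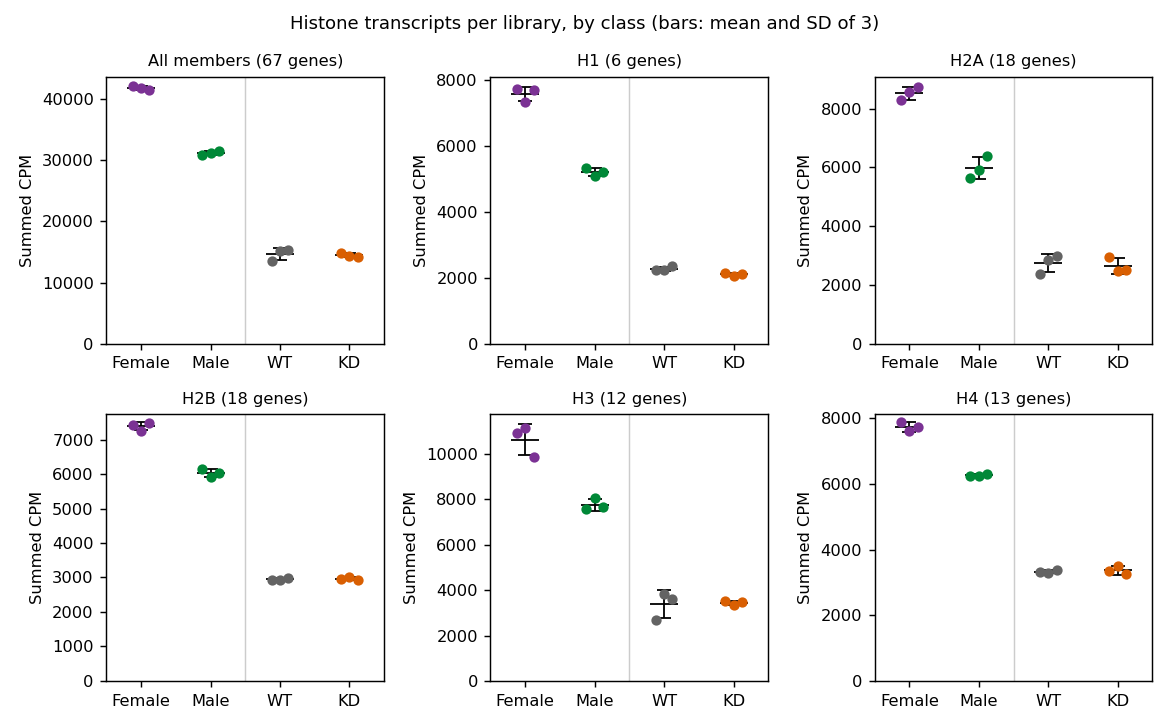
Summed CPM of all 67 histone genes and of each class in the 12 libraries; points are libraries and bars the mean and SD of 3, with a grey line between the separately normalized tables. Each class was lower in all Male than in all Female libraries, and in H3 the first WT library (2691 CPM) lay under the other WT libraries (3834 and 3624 CPM).

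The summed level of each of the 5 classes was below Female in every Male library. These sums, and the gaps between classes, were not tested. The H1 sum was 7712, 7319 and 7681 CPM in Female and 5307, 5079 and 5213 CPM in Male, leaving 68.7% of the Female level. The H2A and H3 sums stood at 70.0% and 73.1% of Female. The H2B and H4 sums stood at 81.6% and 81.0%. The H2A, H2B and H3 sums, and the total, hold genes whose counts changed places with overlapping identifiers (Hist2h2aa1, Hist2h2bb, Hist2h3b and Hist2h3c1). Hist2h2aa1 averaged 1287 CPM in Female and 423 CPM in Male, within mean H2A sums of 8520.5 and 5968 CPM. The gap between H2A and H2B therefore depends partly on how those reads were placed.

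Across single genes, 56 of the 66 members tested were lower in Male, 0 were higher and 10 were not called. Over all 20208 genes tested, 49.8% were called, 26.3% lower and 23.5% higher in Male. The median log2 fold change of the members was -0.38, against 0.011 for all genes. Every Male library lay below every Female library in 56 members, against 29.7% of all genes tested, and above it in 1, against 28.6%. In either direction 58.3% of all genes had groups that did not overlap. A decrease of at least 0.5 on the log2 scale was called for 11 of the 66 members tested, against 10.9% of all genes. Of the 56 calls, those of Hist1h2ao, Hist1h2ba, Hist1h2bj, Hist1h3h, Hist2h3c2 and Hist1h4m were lost in at least 1 of the 17 fits run, and the other 50 were not. The 67th member, Hist1h2aa, had between 0 and 11 counts per library and did not pass the low-count filter.

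**Figure D2:**
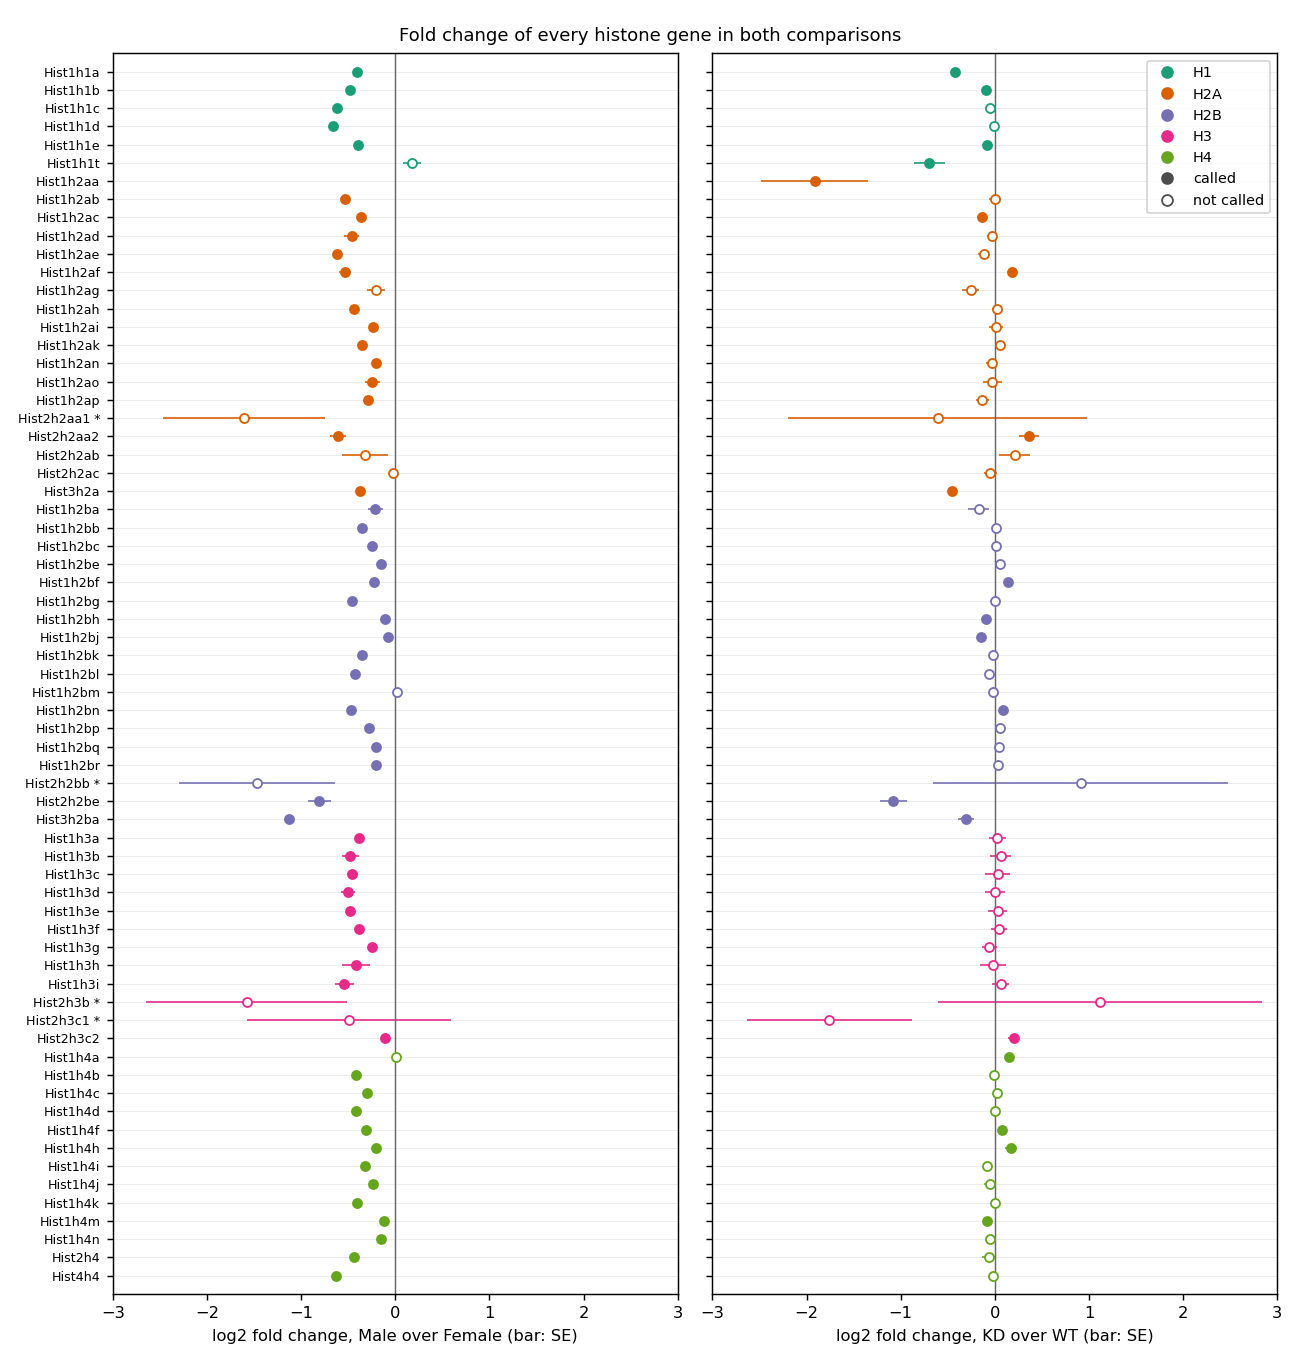
log2 fold change of every tested histone gene, Male over Female at left and KD over WT at right, with SE bars; filled points were called at an adjusted p under 0.05. At left 56 members lie to the left of 0 and are filled, while at right most lie near 0; asterisks mark the 4 genes whose counts changed places with an overlapping identifier, which have the widest bars.

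Of the H1 linker histone genes, 5 of 6 were lower in Male, with a median log2 fold change of -0.44. Hist1h1d, the H1.3 gene (chr13:23553262-23560686, plus strand), was at 2248, 2086 and 2209 CPM in Female and at 1411, 1346 and 1369 CPM in Male. The groups were far apart (log2 fold change -0.67, SE 0.027, edgeR adjusted p 1.39e-08). Hist1h1a, the H1.1 gene (chr13:23763666-23764406, plus strand), was at 1161, 1142 and 1144 CPM in Female and at 871, 868 and 870 CPM in Male. Its libraries varied little within either group, and the log2 fold change was -0.40 (SE 0.013, edgeR adjusted p 3.73e-09). Hist1h1c, Hist1h1b and Hist1h1e, which encode H1.2, H1.5 and H1.4, were lower by log2 fold changes of -0.62, -0.49 and -0.39. The shares of Hist1h1c and Hist1h1d in the H1 sum went from 27.0% in Female to 25.6% in Male and from 28.8% to 26.4%. Hist1h1t, the testis H1 gene, was the exception: it stood at 4.63, 4.97 and 4.59 CPM in Female and 5.42, 5.29 and 5.29 CPM in Male. Its Male libraries all lay above its Female libraries, but the gene was not called (log2 fold change 0.17, edgeR adjusted p 0.156).

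Of the H2A genes, 13 of 17 tested were lower in Male, with a median of -0.36. Hist1h2ae was at 348, 343 and 330 CPM in Female and at 226, 213 and 224 CPM in Male, with groups well apart (log2 fold change -0.62, SE 0.028, edgeR adjusted p 3.34e-08). Hist3h2a, which lies alone with Hist3h2ba on chromosome 11 (chr11:58954685-58956830, plus strand), was at 296.01, 300.28 and 303 CPM in Female and at 237, 222 and 233 CPM in Male. Its log2 fold change was -0.38 (SE 0.027, edgeR adjusted p 8.29e-07). Exons of Trim17 overlap it on the same strand. Hist1h2ak, the H2A gene with the most CPM per kilobase of exon among those with steady counts (1841 in Female and 1443 in Male), was at 732, 740 and 698 CPM in Female and 568, 551 and 583 CPM in Male, a log2 fold change of -0.35. Hist2h2ac stood apart from these: it was at 349, 343 and 343 CPM in Female and 353, 322 and 346 CPM in Male. Its groups overlapped and it was not called (log2 fold change -0.021, edgeR adjusted p 0.624). Hist1h2ag and Hist2h2ab also had overlapping groups and were not called, and Hist2h2aa1 is described with the divided loci.

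H2B genes had the median closest to 0 of the 5 classes, -0.27, with 16 of 18 lower in Male, yet they included the largest decrease of any called member. Hist3h2ba (chr11:58948920-58949533, plus strand) was at 44.3, 40.6 and 44.1 CPM in Female and at 19.3, 19.6 and 20.1 CPM in Male. Male libraries held 45.7% of the Female level (log2 fold change -1.13, SE 0.045, edgeR adjusted p 1.27e-08). Hist2h2be was the next largest, at a far lower level: 5.97, 5.04 and 5.26 CPM in Female against 2.75, 3.20 and 3.34 CPM in Male. The groups did not overlap (log2 fold change -0.81, SE 0.12, edgeR adjusted p 0.000277). Hist1h2bn, highest of the H2B genes per kilobase of exon (2251 CPM per kilobase in Female), was at 866, 846 and 862 CPM in Female and 621, 601 and 629 CPM in Male. Its log2 fold change was -0.47 (SE 0.020, edgeR adjusted p 1.85e-08). At the other end, Hist1h2bj and Hist1h2bh were lower by -0.077 and -0.11, and Hist1h2bm was not called: it was at 328, 334 and 344 CPM in Female and 346, 332 and 337 CPM in Male (log2 fold change 0.015, edgeR adjusted p 0.652). Hist1h2ba, the testis H2B gene, was low at 16.9 and 14.6 CPM in Female and Male and was lower in Male (log2 fold change -0.21, edgeR adjusted p 0.045).

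Of the H3 genes, 10 of 12 were lower in Male, with a median of -0.47. All 9 genes of the Hist1 cluster were called, with log2 fold changes from -0.25 for Hist1h3g to -0.54 for Hist1h3i. Hist1h3f was at 1501, 1488 and 1423 CPM in Female and at 1138, 1136 and 1115 CPM in Male, with groups well apart (log2 fold change -0.38, SE 0.020, edgeR adjusted p 1.02e-07). Hist1h3e was at 1554, 1605 and 1460 CPM in Female and at 1117, 1111 and 1084 CPM in Male (log2 fold change -0.48, SE 0.029, edgeR adjusted p 2.98e-07). Hist1h3c, the H3 gene with the most CPM per kilobase in Female (2182), was at 1418, 1476 and 1230.0 CPM in Female and 987, 1067 and 955 CPM in Male. The third Female library was the lowest of the Female libraries in 8 of the 9 Hist1 H3 genes, and for Hist1h3h, at 566 CPM there, the groups overlapped. Hist2h3c2 was lower by 0.11 on the log2 scale with overlapping groups (edgeR adjusted p 0.042).

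Of the H4 genes, 12 of 13 were lower in Male, with a median of -0.31. Hist4h4, the H4 gene outside the clusters (chr6:136801553-136804415, minus strand), was at 316, 303 and 302 CPM in Female and at 196, 204 and 197 CPM in Male. It fell the most of the class, with groups well apart (log2 fold change -0.63, SE 0.025, edgeR adjusted p 1.53e-08). Hist1h4d was at 1001, 963 and 966 CPM in Female and at 722, 749 and 726 CPM in Male (log2 fold change -0.42, SE 0.020, edgeR adjusted p 6.18e-08). Hist2h4, one of the 6 genes with little shared sequence, was at 1181, 1161 and 1146 CPM in Female and at 843, 894 and 843 CPM in Male (log2 fold change -0.44, SE 0.023, edgeR adjusted p 1.13e-07). Hist1h4f, highest per kilobase of all members in Female (2475 CPM per kilobase), was lower by -0.31. Hist1h4a was not called: it was at 408, 390 and 415 CPM in Female and at 413, 394 and 416 CPM in Male, so that the groups overlapped (log2 fold change 0.011, edgeR adjusted p 0.770).

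**Figure D3:**
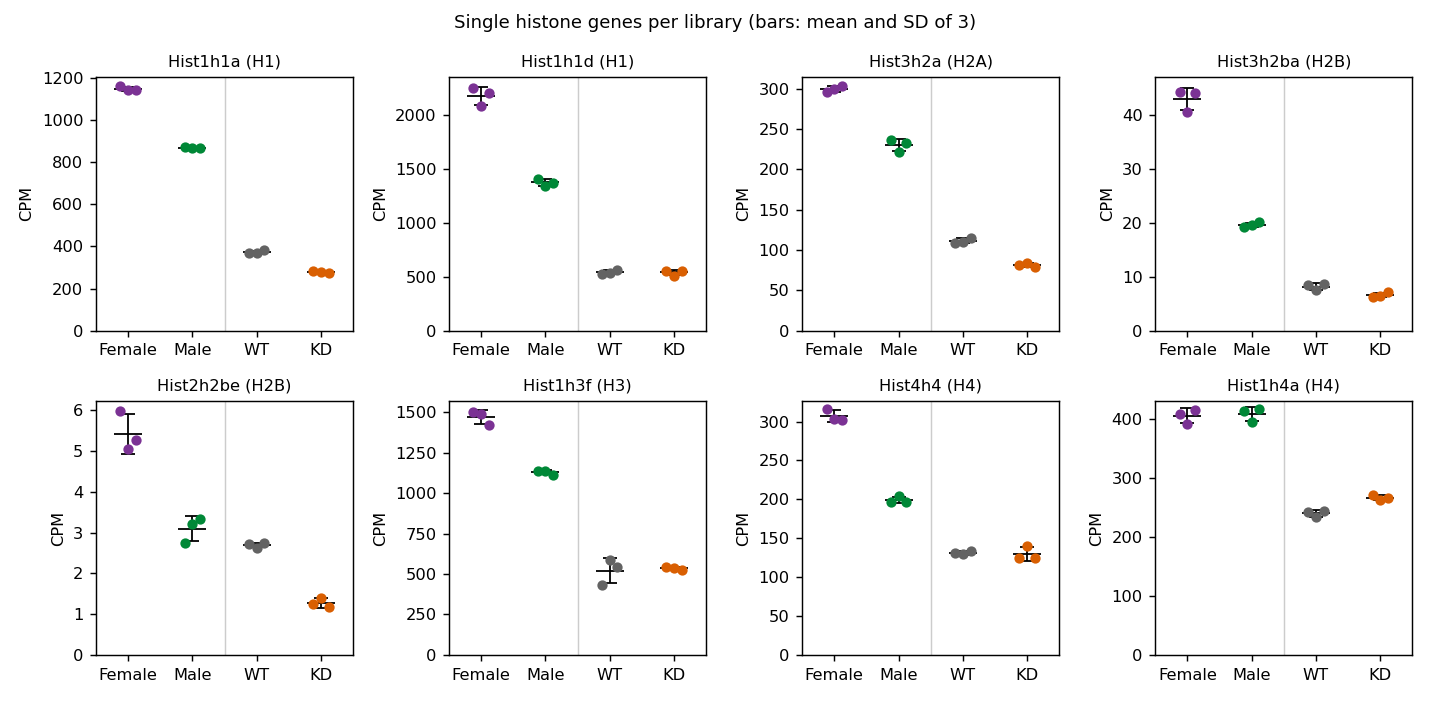
CPM of 8 histone genes in each library, with mean and SD bars; the vertical axes start at 0 and differ between panels. Hist1h1a, Hist3h2a, Hist3h2ba and Hist2h2be were lower in Male than in Female and in KD than in WT, while Hist1h1d, Hist1h3f and Hist4h4 were called lower in Male and not called in KD, and Hist1h4a was not called in Male and was called higher in KD.

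At 2 loci of the Hist2 cluster on chromosome 3 the counts of a histone gene and of an overlapping identifier changed places between replicates of one group. Hist2h2aa1 had 75195, 138807 and 145612 counts in Female but 1618, 52173 and 60860 in Male. The WT libraries had 297, 24568 and 26561 counts, and those of KD 27474, 571 and 110. Gm20634, on the same strand, was high where Hist2h2aa1 was low: it had 145803, 81979 and 67869 counts in the Male libraries, 73299, 37967 and 36187 in those of WT, and 32051, 75806 and 67573 in those of KD. With Hist2h3c1, Gm20633 and Gm47313 added, the sum was 185468, 207456 and 206825 counts in Female and 153159, 152411 and 146732 in Male. The coefficient of variation of the depth-scaled values was between 27.6% and 168% for Hist2h2aa1 alone and between 1.14% and 4.14% for the sum. Hist2h2aa1 alone was not called (log2 fold change -1.61, edgeR adjusted p 0.152), while the sum was lower in Male (log2 fold change -0.40, SE 0.016, edgeR adjusted p 7.53e-09).

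The second such locus holds Hist2h3b and Hist2h2bb. Hist2h3b had 30038, 33200 and 28417 counts in Female and 16131, 0 and 14325 in Male. It also had 0 counts in the first and second WT libraries and the first KD library, with 8611 to 11600 counts in the others of those groups, and Hist2h2bb was at 0 in the same 4 libraries. Counting error alone allows up to 3 counts where 0 were found. Gm20628, on the opposite strand, had 54165, 76586 and 52009 counts in Male and was highest of the Male libraries in the one where both histone genes were at 0. The sum with Gm20628 and Gm42743 was steady, with coefficients of variation between 2.58% and 4.13%, and was lower in Male (log2 fold change -0.32, edgeR adjusted p 1.14e-05). In KD the same sum was higher than in WT (log2 fold change 0.10, SE 0.032, edgeR adjusted p 0.028), whereas neither histone gene of this locus was called there on its own. At Hist2h2aa2, the sum with its opposite-strand partner Gm20632 was lower in Male by a log2 fold change of -0.49. With all overlapping identifiers added together, 57 of 63 tested histone loci were lower in Male and 0 higher.

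**Figure D4:**
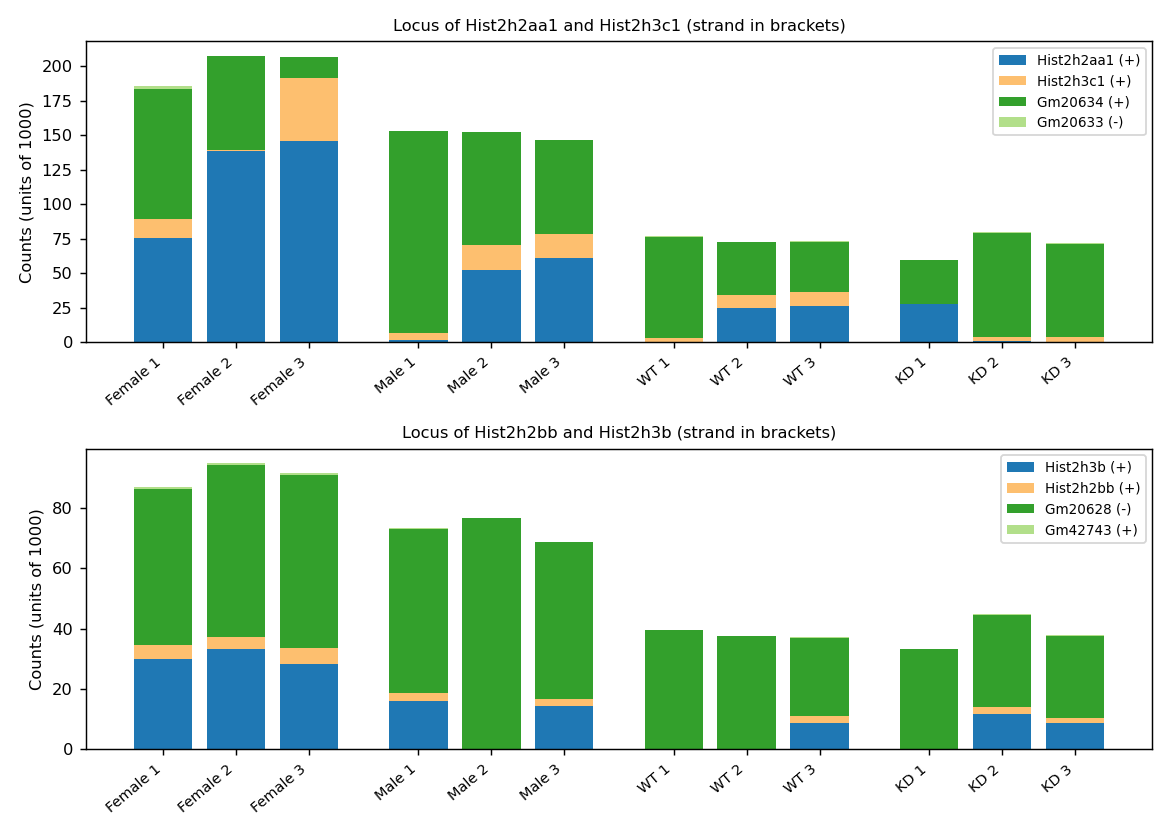
Counts, in units of 1000, of the identifiers that overlap at 2 Hist2 loci, stacked for each of the 12 libraries; the strand of each is in brackets and identifiers with 100 counts or fewer over all libraries are not drawn. The parts differ between replicates, as in the second Male library, where Hist2h3b and Hist2h2bb are at 0, while the totals, scaled by depth, had coefficients of variation of 1.14% to 4.14% within a group.

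In the second comparison the targeted gene was checked first. Kdm5d was at 48.4, 51.9 and 52.4 CPM in WT and at 21.4, 21.8 and 22.9 CPM in KD. KD held 43.3% of the WT level (log2 fold change -1.21, SE 0.045, edgeR adjusted p 3.13e-08), so the transcript was reduced and not lost.

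The summed histone level overlapped between KD and WT only through the first WT library, and single genes changed in both directions. The sums were 13557, 15119 and 15303 CPM in WT and 14918, 14388 and 14255 CPM in KD. Without the first WT library the median log2 fold change was negative in each class, from -0.11 in H1 to -0.00039 in H2B. Of the 67 members, 12 were lower in KD, 8 were higher and 47 were not called. Over all 20413 genes tested, 35.1% were called, 18.4% lower and 16.8% higher in KD, so the members' share of 17.9% lower was near that of all genes. The median log2 fold change was -0.0054, against 0.012 for all genes. Every KD library lay below every WT library in 14 members, against 23.6% of all genes, and above it in 8, against 23.2% (46.8% of all genes in either direction). With upper-quartile scaling the calls were 7 lower and 9 higher. Without the third WT library 5 were lower, and without the first or the second WT library 4 were higher. Decreases of at least 0.5 on the log2 scale were called for 3 of the 67 members, against 4.64% of all genes. Over the 17 fits run on single genes, those with other settings or a library left out included, 5 genes were lower in each (Hist1h1a, Hist1h1t, Hist1h2bj, Hist2h2be and Hist3h2a) and 2 higher in each (Hist1h2bf and Hist1h4a). The other 13 calls were lost in at least 1 fit. Leaving out the first WT library ended those of Hist1h2aa, Hist1h2af, Hist1h2bh, Hist1h4h, Hist2h2aa2, Hist2h3c2 and Hist3h2ba. The second WT library did so for Hist1h1e, Hist1h2aa, Hist1h2bn, Hist1h4f, Hist1h4h and Hist2h2aa2, and the third for Hist1h1b, Hist1h1e, Hist1h2aa, Hist1h2ac, Hist1h2bh, Hist1h4h, Hist1h4m and Hist3h2ba. Without the first KD library Hist1h2aa, Hist1h2ac, Hist1h2af, Hist1h2bh, Hist1h4f and Hist3h2ba were not called. The same was seen without the second for Hist1h1e, Hist1h2aa, Hist1h2bh, Hist2h3c2 and Hist3h2ba, and without the third for Hist1h1e, Hist1h2aa, Hist1h2ac, Hist1h4m and Hist2h2aa2.

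Of the 6 H1 genes, 4 were lower in KD and 0 higher, among them Hist1h1e, whose call held in 11 of the 17 fits. Hist1h1a was at 369, 367 and 382 CPM in WT and at 281, 277 and 273 CPM in KD. KD held 74.4% of the WT level with groups well apart (log2 fold change -0.43, SE 0.022, edgeR adjusted p 2.68e-07), and the gene went from 16.4% to 13.2% of the H1 sum. Hist1h1b was at 505, 514 and 527 CPM in WT and at 499, 469 and 478 CPM in KD. This was a smaller decrease (log2 fold change -0.097, edgeR adjusted p 0.013), and Hist1h1e was lower by -0.085. Exons of Hist1h1e overlap those of Hist1h2be on the same strand, and the sum of that locus was not called (log2 fold change -0.023, edgeR adjusted p 0.449). Hist1h1t had 287, 276 and 215 counts in WT and 123, 152 and 175 in KD (log2 fold change -0.70, SE 0.17, edgeR adjusted p 0.00782). Hist1h1c was at 442, 447 and 471 CPM in WT and 443, 434 and 435 CPM in KD, and its groups overlapped (log2 fold change -0.054, edgeR adjusted p 0.128). Hist1h1d, which had the largest H1 decrease in Male, was at 542 CPM in WT and 540 CPM in KD (log2 fold change -0.0054, edgeR adjusted p 0.927). The H1 sum in KD was 92.5% of that in WT.

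Of 18 H2A genes, 3 were lower and 2 higher in KD. Hist3h2a was at 109, 110 and 115 CPM in WT and at 81.6, 83.4 and 78.4 CPM in KD. The groups were well apart (log2 fold change -0.46, SE 0.033, edgeR adjusted p 2.54e-06). Hist1h2ac was lower by -0.14 (edgeR adjusted p 0.038). Hist1h2aa, a testis H2A gene, was called from few counts: 13, 16 and 12 in WT and 3, 4 and 3 in KD. The call (log2 fold change -1.92, SE 0.57, edgeR adjusted p 0.025) was lost whichever of the 6 libraries was left out. Hist1h2af was at 145, 157 and 167 CPM in WT and at 187, 169 and 178 CPM in KD, with the KD libraries all above (log2 fold change 0.18, edgeR adjusted p 0.017). Hist2h2aa2 was called higher (log2 fold change 0.36, edgeR adjusted p 0.022) with overlapping groups, but its sum with the opposite-strand Gm20632 was not (log2 fold change -0.068, edgeR adjusted p 0.316).

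Of 18 H2B genes, 4 were lower and 2 higher in KD. Hist2h2be had 297, 253 and 266 counts in WT and 99, 152 and 114 in KD, or 2.69 and 1.27 CPM on average. The groups were well apart, and KD held 47.3% of the WT level (log2 fold change -1.08, SE 0.14, edgeR adjusted p 0.000216). Hist3h2ba was at 8.42, 7.47 and 8.64 CPM in WT and at 6.28, 6.42 and 7.13 CPM in KD (log2 fold change -0.31, SE 0.088, edgeR adjusted p 0.021). Hist1h2bj was at 230, 233 and 238 CPM in WT and 213, 215 and 204 CPM in KD (log2 fold change -0.15, SE 0.025, edgeR adjusted p 0.00106). Hist1h2bf went the other way, from 75.6, 72.9 and 75.8 CPM in WT to 82.0, 80.8 and 84.1 CPM in KD (log2 fold change 0.14, SE 0.030, edgeR adjusted p 0.00491). Hist1h2bn was higher by 0.090 and Hist1h2bh lower by -0.095.

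Few H3 and H4 genes were called in KD. Of 12 H3 genes, 0 were lower and 1 was higher: Hist2h3c2, at 181, 203 and 201 CPM in WT and 221, 242 and 208 CPM in KD (log2 fold change 0.20, SE 0.056, edgeR adjusted p 0.020). In the first WT library each of the 12 H3 genes had the lowest value of the 3 WT libraries, tied at 0 for Hist2h3b. Hist1h3c, for example, was at 321, 503 and 451 CPM in WT and at 466, 397 and 438 CPM in KD (log2 fold change 0.030, edgeR adjusted p 0.893). The H3 median was 0.029 with all libraries and -0.099 without the first WT library, where Hist1h3d was lower and 0 genes were higher, so its sign rested on that library. Of 13 H4 genes, 3 were higher and 1 lower. Hist1h4a was at 242, 233 and 244 CPM in WT and at 270, 263 and 266 CPM in KD, with all KD libraries above (log2 fold change 0.15, SE 0.023, edgeR adjusted p 0.000458). Hist1h4h was at 321, 303 and 312 CPM in WT and at 335, 394 and 325 CPM in KD, and the second KD library stood above the others. Its log2 fold change was 0.17 (edgeR adjusted p 0.0495), and 0.079 without that library. The call held in 10 of 17 fits and was lost without each of the WT libraries. Hist1h4f was higher by 0.081 (edgeR adjusted p 0.016). Hist1h4m was lower by -0.085 (edgeR adjusted p 0.019).

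The same genes can be set side by side over both comparisons, which share no library. Of the 66 members tested in both, 10 were lower in Male and lower in KD: Hist1h1a, Hist1h1b, Hist1h1e, Hist1h2ac, Hist1h2bh, Hist1h2bj, Hist1h4m, Hist2h2be, Hist3h2a and Hist3h2ba. A further 7 were lower in Male and higher in KD: Hist1h2af, Hist1h2bf, Hist1h2bn, Hist1h4f, Hist1h4h, Hist2h2aa2 and Hist2h3c2. The largest number, 39, were lower in Male and not called in KD. The 10 were 17.9% of the 56 genes lower in Male, and 16.7% of all 66 were lower in KD. They were also 10 of the 11 lower in KD (90.9%), and 84.8% of all 66 were lower in Male. Kdm5d itself was at 50.9 CPM in Male and had 0 to 2 counts in the Female libraries. The group with less Kdm5d transcript had more histone RNA in the first comparison, where Kdm5d and sex cannot be told apart. In the second, the summed histone level of KD overlapped that of WT, through the first WT library only. Among the genes called in both comparisons, the KD calls of Hist1h1e and Hist2h2aa2 were absent from the sums of their loci. Hist1h2ac, Hist1h2af and Hist3h2a also overlap other identifiers, and sums of their loci are not given here.

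Features that do not come from the counts were set beside the calls, with no test. Of the 23 genes whose annotated transcript runs more than 100 bases past the stem-loop, 20 were lower in Male (median -0.39). The same held for 19 of 23 with a shorter end (median -0.29) and for 17 of 20 tested without a loop in their annotation (median -0.41). Of the H2A and H2B genes with the octamer ATTTGCAT in the promoter window, 9 of 12 tested were lower in Male (median -0.37), and 18 of 21 without it were (median -0.28). In KD, 3 of 13 with the octamer (23.1%) and 3 of 21 without it (14.3%) were lower, on either side of the 18.4% of all genes. Members of divergent pairs, whose starts lie within 1000 bases on opposite strands, are given as a description. Of 12 pairs with both genes tested, both were lower in Male in 10. Taken singly, 84.8% of all tested members were lower, which is not a like measure for pairs. The 2 log2 fold changes of a pair differed by a median of 0.13, beside 0.20 over all possible pairs of members. In KD both were lower in 0 of 13 pairs, while 17.9% of members were lower singly, and the medians were 0.13 and 0.14. In Male the pair with the largest gap was Hist2h2ac and Hist2h2be (0.79 apart), whose starts are 239 bases from each other. In KD that pair was 1.03 apart. The largest gap there was that of Hist1h2ba and Hist1h2aa (1.74 apart), of which Hist1h2aa had few counts. Hist1h2bg, whose promoter is printed above, and its partner Hist1h2ae were lower in Male by -0.46 and -0.62.

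Genes that make, carry or replace these histones moved in both directions. For this and the lists below, 23.5% of all genes tested were higher and 26.3% lower in Male. In KD, 16.8% of all genes were higher and 18.4% lower. Of 14 genes for transcription and 3′ end processing of histone messages, 8 were higher and 5 lower in Male. Srrt, which links the cap-binding complex to processing, was higher (97.7 CPM in Female and 177 CPM in Male, log2 fold change 0.86, edgeR adjusted p 1.42e-08). Lsm11, a protein of the U7 particle, was lower (48.9 and 31.9 CPM, log2 fold change -0.62, edgeR adjusted p 1.94e-07), as was Casp8ap2 (log2 fold change -0.25). Slbp, the stem-loop-binding protein, was slightly higher in Male (log2 fold change 0.098, edgeR adjusted p 0.027) and higher in KD (log2 fold change 0.18, edgeR adjusted p 0.000205). In KD, 4 of the 14 were higher and 4 lower. Of 8 tested genes for decay of histone messages, 4 were higher and 2 lower in Male, and 3 higher and 4 lower in KD. Eri1, an exonuclease that trims the stem-loop, was higher in both (log2 fold changes 0.24 and 0.13).

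Variant histones, most of which are made outside S phase too, from polyadenylated messages, moved in both directions in Male: of 11 tested, 4 were higher and 5 lower. H2afv and H2afz, the 2 H2A.Z genes, went opposite ways, with H2afv at 59.3 CPM in Female and 28.3 CPM in Male (log2 fold change -1.07, edgeR adjusted p 4.26e-09) and H2afz at 270 and 372 CPM (log2 fold change 0.46, edgeR adjusted p 5.07e-08). H2afx, whose message can also end in the stem-loop, was higher (log2 fold change 0.47), and H2afy, which encodes macroH2A, was lower in Male (-0.36) and in KD (-0.42). H1f0, the replacement H1, was lower in Male (-0.17) and in KD (-0.59, edgeR adjusted p 2.19e-05). Of the 11 variant genes, 4 were higher and 5 lower in KD. Of 18 histone chaperone genes, 10 were higher and 5 lower in Male, among the first Daxx (0.86), Nasp (0.55), Supt16 (0.41) and Ssrp1 (0.39). In KD, 13 were higher and 2 lower, with Anp32e at 0.35 and Daxx lower at -0.45.

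Cell cycle genes moved in parts. Of 30 genes of G1/S and S phase, 18 were lower and 8 higher in Male, with a median of -0.15. Mcm7 (-0.48) and E2f2 (-0.59) were among the lower, and Rrm1 (0.49) and Mcm2 (0.33) among the higher. Their summed level was between 5084 and 5148 CPM in Female and between 4987 and 5031 CPM in Male. Of 20 genes of G2 and mitosis, 15 were higher and 2 lower in Male, with a median of 0.26, among them Ccnb1 (0.87) and Plk1 (0.76). In KD, 22 of the 30 S phase genes were higher and 1, Cdt1, lower (median 0.19), among them Pcna (0.31), Mcm6 (0.25) and Tyms (0.46), while the histone median stood at -0.0054. The S phase genes summed to between 5156 and 5166 CPM in WT and between 5894 and 5909 CPM in KD. The part of cell cycle genes in the histone values was not tested.

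**Figure D5:**
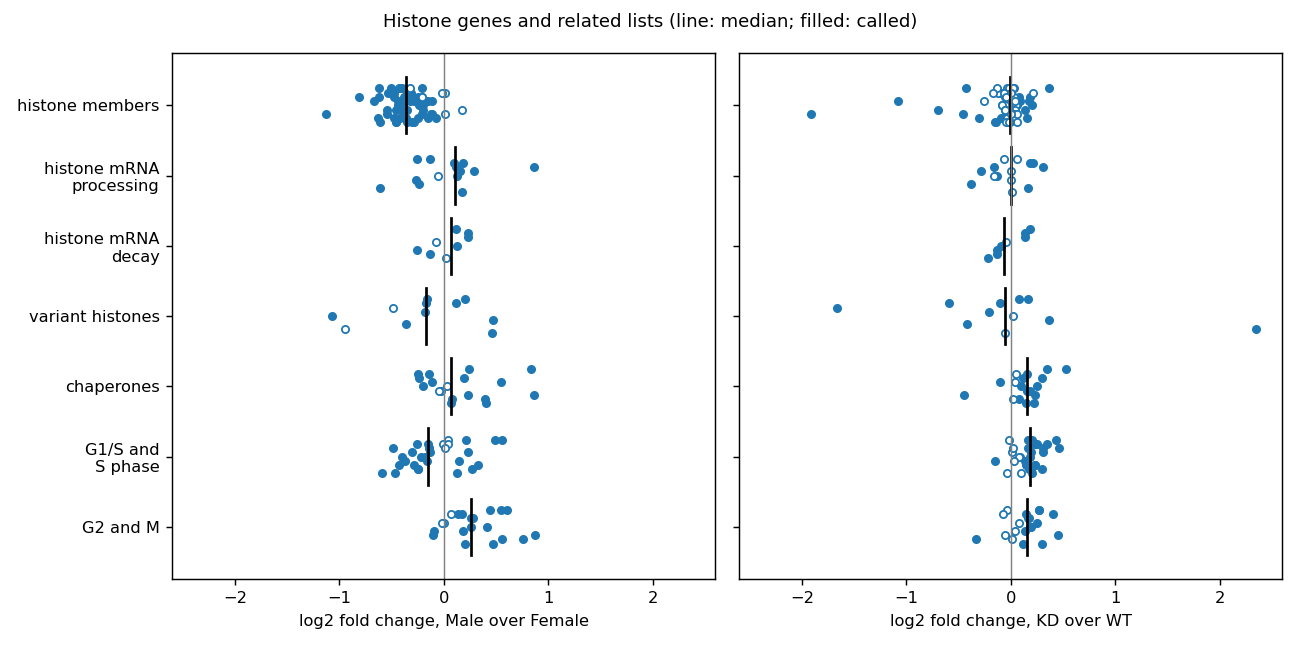
log2 fold change of each gene of 7 groups, Male over Female at left and KD over WT at right; filled points were called and the black lines are medians. The 4 histone genes with divided counts are not drawn. At left the median of the histone genes drawn is -0.36 while that of the G2 and mitosis genes is 0.26; at right the S phase genes have a median of 0.19.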

How the data were processed

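Total RNA of 12 cultures was sequenced after ribosomal RNA depletion. The values are unnormalized counts per gene identifier, deposited by the authors as 2 tables, the first of the Female and Male libraries and the second of the WT and KD libraries. The submitters' processing notes name bcl2fastq 2.20.0, HISAT2, StringTie, DESeq2 and the build mm10, without role or order. The annotation, the counting tool and its use of strand are not given in the sources used here. All value columns were used.

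Identifiers were matched to GENCODE M21 (55227 matched, 260 not). Each table was fitted on its 6 libraries with edgeR 4.0.16 in R 4.3.3 (TMM factors, filterByExpr, quasi-likelihood test, Benjamini-Hochberg adjustment over all genes tested, threshold 0.05). SE is the absolute log2 fold change over the square root of F. Groups came from the sample titles. Counting error is small at these depths. The allowance of up to 3 counts where 0 were found covers counting error only, whereas SE and SD include the spread between libraries. Members and the 8 gene lists were chosen with earlier results of these data known. Genes given in full are, per class and comparison, the 2 called members with the smallest p in each direction, the highest per kilobase and the uncalled member with the largest change. Of each gene list up to 4 members with the smallest p were eligible. Further members given by library, Cdt1 and the marker genes named were chosen after their values were seen. The fit was tested on simulated data with 1 fixed dispersion and 200 genes changed by 1 on the log2 scale, far fewer than were called here. It called 92.5% of those genes in the Male and Female setting and 90.5% in the KD and WT setting. Of all its calls, 7.5% and 6.7% were false, at the threshold of 0.05.

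Alternatives were DESeq2 (1.42.0) size factors and test, limma-voom (limma 3.58.1), upper-quartile factors, TMM factors without the members, low-count filters, all 12 libraries in one fit, only members with little shared sequence, larger changes only, each library left out, and a replicate block. Summing overlapping identifiers, dropping the 4 divided members and using protein-coding genes only were added after seeing the data. The titles number replicates 1 to 3 in every group, but nothing says that a number marks a shared mouse or day.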

Additional observations from a re-analysis of the deposited data

How the results depend on the processing

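The direction of the Male decrease was kept in all alternatives run, and 50 members were called lower in every one of 17 fits. The members' median was -0.38 and was -0.40 with all 12 libraries in one fit, -0.39 without a low-count filter, and -0.46 over the 6 members with little shared sequence, of which 5 were lower. After changes chosen with the data seen, it was -0.36 with overlapping identifiers summed, -0.36 without the 4 divided members and -0.33 over protein-coding genes, where 1 member, Hist1h2bm, was called higher. Requiring 0.5 on the log2 scale left 11 lower. Leaving out each library gave 52 to 57 lower and medians of -0.39 to -0.37. Calls in KD were less stable, with 5 members lower and 2 higher in every one of 17 fits. With upper-quartile factors 7 were lower. Among the 6 members with little shared sequence, 4 were lower and 0 higher, with a median of -0.26. At least 0.5 on the log2 scale was reached by 3 lower and 0 higher. Leaving out each library gave 5 to 13 lower (5 without WT 3), 4 to 9 higher (4 without WT 1 or WT 2) and medians of -0.061 to 0.011. Some uncalled values changed sign. Hist1h4a in Male was -0.011 with all 12 libraries, -0.0031 without a filter, and from -0.015 (without Female 2) to 0.029 (without Male 2) when each library was left out. In KD, leaving out each library gave -0.14 (without WT 1) to 0.17 (without WT 2) for Hist1h3c and -0.0042 to 0.087 (the same libraries) for Hist1h2ak. The cause was not tested. With the replicate number as a block, 58 members were lower and 0 higher in Male, and 12 lower and 7 higher in KD. Deviations of same-numbered libraries correlated between -0.001 and 0.018 in Female and Male and between -0.04 and 0.021 in WT and KD, so the numbers were not taken as pairs. Shared sequence and, for members with few counts such as Hist1h2aa, depth limit single genes.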
